A study of Homo sapiens with 5 samples.

Results

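The somatostatin receptor family consists of 5 genes, SSTR1 to SSTR5, and all 5 were found by symbol among the 57905 genes of the expression table. RNA was sequenced from 5 established human cell lines, with 1 library per line, none of them treated or genetically modified as far as the labels say. WaGa, MKL-1, MKL-2 and MCC13 are labelled as Merkel cell carcinoma, an aggressive neuroendocrine cancer of the skin (n = 4). As background, the first 3 are known as lines that carry the Merkel cell polyomavirus and MCC13 as a line without it, which was not measured here. The line REH is labelled as pre-B-cell acute lymphoblastic leukemia (n = 1). All were wild type by label and grown in RPMI medium with fetal bovine serum, so the data describe cultured tumour cells without stroma, vessels or infiltrating cells. Each line comes from 1 tumour, and line and library cannot be told apart.

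Somatostatin receptors are G protein-coupled receptors for the inhibitory peptide hormones somatostatin and cortistatin. On binding the ligand they act through inhibitory G proteins of the Gi/Go type, which lower adenylyl cyclase activity, open inwardly rectifying potassium channels and close voltage-gated calcium channels, and the secretion of hormones falls. SSTR2 is abundant in many neuroendocrine tumours, and radiolabelled somatostatin analogues such as DOTATATE, which bind SSTR2 with high affinity, are used to image and treat these tumours, Merkel cell carcinoma among them.

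Values are TPM, a length-corrected share of the RNA of a library that sums to the same total in every line, so levels of different receptors can be compared within a line. TPM keep no read depth, and counting error is therefore unknown. Some zeros may stand for estimates that failed, and a gene with one is here only said to be listed at 0. Between 15949 and 16921 genes reached 1 TPM in a line. Neuroendocrine and Merkel cell markers were present in MKL-1, MKL-2 and WaGa, where INSM1 ranged from 572 to 582 TPM, but INSM1, ATOH1, ISL1 and KRT20 were listed at 0 in MCC13. The 13 markers of this kind summed to 7879 TPM for WaGa, 4390 TPM for MKL-1 and 4872 TPM for MKL-2, and to just 40.2 TPM for MCC13. The label of MCC13 is therefore kept only as a label. REH carried the B-cell marker CD79A at 1091 TPM.

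The 250 bases upstream of the annotated start are shown for 3 receptors, because SSTR2 was the receptor with the highest level in every line while SSTR1 and SSTR3 were its closest companions in MCC13 and in MKL-1. They are RefSeq sequences of GRCh38.p14, a different build from the hg19/GRCh37 of the expression data, and are written 5′ to 3′ on the strand of the gene. The window of SSTR2 is chr17:73164760-73165009 (plus strand), that of SSTR1 is chr14:38207654-38207903 (plus strand) and that of SSTR3 is chr22:37212478-37212727 (minus strand). None of these 3 windows overlaps an annotated exon of its gene. Capitals mark matches, on either strand, to an E-box (CANNTG), the half-site of the cyclic AMP response element (TGACG), a GC box (GGGCGG) or a TATA box (TATAAA).
SSTR2: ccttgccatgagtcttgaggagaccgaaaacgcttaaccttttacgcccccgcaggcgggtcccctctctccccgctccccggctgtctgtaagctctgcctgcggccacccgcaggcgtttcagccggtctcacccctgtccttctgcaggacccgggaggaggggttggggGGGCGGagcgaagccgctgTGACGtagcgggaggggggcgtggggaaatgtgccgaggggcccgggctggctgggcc
SSTR1: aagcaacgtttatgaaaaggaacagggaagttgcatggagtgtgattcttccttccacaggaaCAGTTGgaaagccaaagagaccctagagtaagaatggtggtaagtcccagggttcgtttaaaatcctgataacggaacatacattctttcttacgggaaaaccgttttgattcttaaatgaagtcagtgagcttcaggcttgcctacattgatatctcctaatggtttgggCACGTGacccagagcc
SSTR3: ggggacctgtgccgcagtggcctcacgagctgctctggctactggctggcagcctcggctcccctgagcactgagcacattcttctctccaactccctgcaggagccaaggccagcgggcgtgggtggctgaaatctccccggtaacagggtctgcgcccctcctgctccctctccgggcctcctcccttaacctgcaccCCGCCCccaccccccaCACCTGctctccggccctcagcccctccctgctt

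The window of SSTR2 is rich in G and C, at 69.2% against a median of 58.0% over 35114 windows of the same length, and holds 20 CpG dinucleotides against a median of 11. It has 1 GC box between 77 and 72 bases before the start and 1 cyclic AMP response element half-site between 58 and 54 bases before it. A GC box occurs in 42.6% and the half-site in 21.2% of all windows. No other window of a receptor holds the half-site. The window of SSTR1 has a GC content of 43.6% and 6 CpG, and it holds 2 E-boxes, CAGTTG and CACGTG, the second of them 16 to 11 bases before the start. The window of SSTR3 has a GC content of 68.4% and 10 CpG, with the E-box CACCTG and a GC box on the opposite strand. A further window of SSTR3, before another annotated start, lies wholly in exons of the gene and is not printed; it has a GC content of 54.0%, 3 CpG and 1 E-box. E-boxes, the sites of basic helix-loop-helix factors such as ATOH1, occur in 61.8% of windows. No TATA box was found in the windows of SSTR1 to SSTR5, against 10.7% of all windows. The windows of SSTR4, with 24 CpG, and SSTR5, with 16 CpG and 3 E-boxes, are not printed. These matches describe letters only, since binding and methylation were not measured here.

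SSTR2, the receptor most used for imaging, was the main receptor RNA in the Merkel cell carcinoma lines. Its level was 51.5 TPM in WaGa, 18.3 TPM in MKL-1, only 3.64 TPM in MKL-2, 1.59 TPM in MCC13 and 0.485 TPM in REH. All 4 Merkel cell carcinoma lines lay above REH, but over a wide range, with WaGa 14.1-fold and MKL-1 5.01-fold above MKL-2. The mean of the 4 lines was 18.7 ± 23.0 TPM (SD, n = 4), a spread larger than the mean. Within a line, SSTR2 lay above 74.6% of the genes that reached 1 TPM in WaGa, above 46.9% in MKL-1, above 21.8% in MKL-2 and above 7.82% in MCC13. Even at its highest, it was thus a gene of moderate level, and in MCC13 it was among the lowest genes above 1 TPM. With 1 library per line, no error can be given for the level of a line, so neighbours in this order could not be tested against each other. Fewer cells with the RNA and less RNA per cell cannot be told apart in such libraries.

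SSTR5, which like SSTR2 binds the clinically used octapeptide analogues, reached 1 TPM in WaGa alone. Its level was 2.43 TPM in WaGa, 0.0238 TPM in REH, 0.0164 TPM in MKL-1 and close to 0 in MKL-2 (0.00055 TPM), and it was listed at 0 in MCC13. WaGa was therefore the line with the highest level of both SSTR2 and SSTR5.

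SSTR3, a receptor known to reside in primary cilia of neurons, was highest in MKL-1 and MKL-2. Its level was 1.38 TPM in MKL-1, then 0.897 TPM in MKL-2, 0.0547 TPM in WaGa, 0.0447 TPM in REH and 0.0312 TPM in MCC13. MKL-2 exceeded WaGa 16.4-fold, so the line with the most SSTR2 RNA was among the lines with little SSTR3 RNA.

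SSTR1 was highest in MCC13, the only line in which it reached 1 TPM. Its level was 1.42 TPM in MCC13 and 0.245 TPM in MKL-2, and it was listed at 0 in MKL-1, WaGa and REH. In MCC13 it came close to SSTR2, which exceeded it only 1.12-fold.

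SSTR4, known mainly from the brain, stayed under 1 TPM in all 5 lines. WaGa had 0.134 TPM of it and MKL-2 had 0.267 TPM, and it was listed at 0 in MKL-1, MCC13 and REH. These low values allow no order of the lines.

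**Figure D1:**
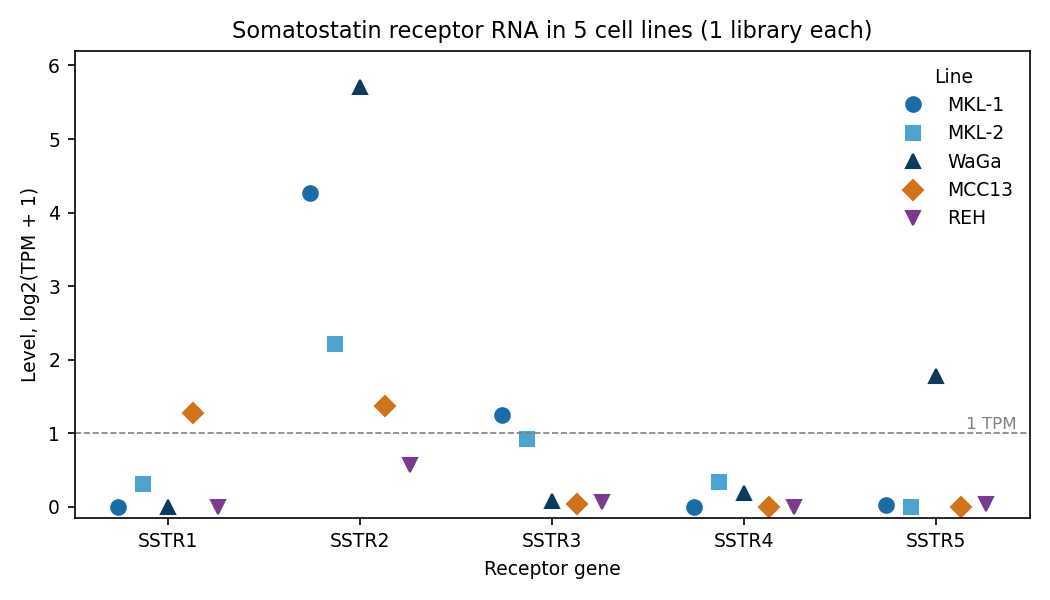
Level of each somatostatin receptor on the vertical axis, as log2(TPM + 1), in the 5 lines, 1 point per library, with a dashed line at 1 TPM. SSTR2 spans the widest range, from 0.485 TPM in REH to 51.5 TPM in WaGa, while SSTR5 passes the dashed line in WaGa, SSTR3 in MKL-1 and SSTR1 in MCC13, and SSTR4 in no line.

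Seen by line, the family differed both in amount and in make-up. The summed receptor RNA was 54.1 TPM in WaGa, 19.7 TPM in MKL-1, only 5.05 TPM in MKL-2, 3.04 TPM in MCC13 and 0.554 TPM in REH. At 1 TPM or more stood 2 receptors in WaGa (SSTR2 and SSTR5), 2 in MKL-1 (SSTR2 and SSTR3), 1 in MKL-2 (SSTR2), 2 in MCC13 (SSTR2 and SSTR1) and 0 of the 5 in REH. Of all genes, 28.9% reached this level in WaGa, 28.9% in MKL-1, 29.2% in MKL-2, 27.5% in MCC13 and 27.8% in REH, so counts of 1 or 2 of 5 receptors are near the background, and 4 of 5 receptors reached it in at least 1 line, against 38.4% of genes. SSTR2 made up 95.2% of the receptor RNA in WaGa, 92.9% in MKL-1, 72.1% in MKL-2 and 52.4% in MCC13. The remainder was mostly SSTR5 in WaGa (4.50%), SSTR3 in MKL-1 (7.0%) and in MKL-2 (17.8%), and SSTR1 in MCC13 (46.6%). In REH, SSTR2 was 87.6% of a sum under 1 TPM.

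**Figure D2:**
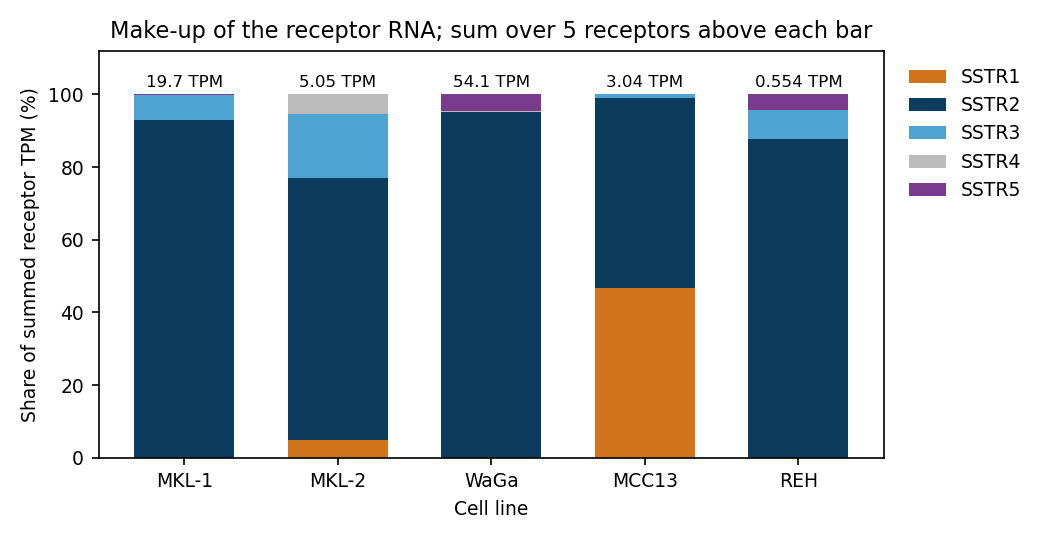
Share of the summed receptor TPM (vertical axis, %) held by each of the 5 receptors in each line, 1 library per bar, with the sum in TPM above the bar. SSTR2 is the largest segment in all 5 lines, from 52.4% in MCC13 to 95.2% in WaGa, and SSTR1 fills 46.6% of the bar of MCC13.

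MKL-1, MKL-2 and WaGa, the 3 lines with the marker set of Merkel cells, were less alike in SSTR2 than in most of the genes they all expressed. Across 14538 genes at 1 TPM or more in all 3 lines, the median ratio of the highest to the lowest line was 1.77, and 1.17% of these genes had a ratio at least as large as the 14.1 of SSTR2. The neuroendocrine factor INSM1 had a ratio of 1.02, the Merkel cell factor ATOH1 1.35, the secretory vesicle protein SYP 1.72 and the granule protein CHGA 6.84. Of the 11 neuroendocrine markers at this level, 1 varied as widely, the Merkel cell keratin KRT20 with a ratio of 32.2. KRT20 stood at 466 TPM in WaGa, 203 TPM in MKL-2 and 14.5 TPM in MKL-1. Its lowest line was thus MKL-1, not MKL-2 as for SSTR2. Requiring 1 TPM in all 3 lines leaves out genes that are off in 1 of them, such as the neuroendocrine factor NEUROD1, at 20.0 TPM in MKL-2, 12.8 TPM in MKL-1 and 0.138 TPM in WaGa. Over the 19232 genes at 1 TPM in at least 1 of the 3 lines, a setting chosen after seeing the data, 2.98% had a range of log2(TPM + 1) at least as large as the 3.5 of SSTR2, and 2 of 12 markers did, KRT20 and NEUROD1.

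The first comparison implied by the labels sets the Merkel cell carcinoma lines against the leukemia line. Genes were tested with limma on log2(TPM + 1) where at least 1 line compared reached 1 TPM, which 4 of the 5 receptors did, and SSTR4 was not tested. The p-values are 2-sided, and those called adjusted are adjusted over all genes tested. All 4 tested receptors stayed under 1 TPM in REH, so they entered this comparison only through the Merkel cell carcinoma lines, and their direction was set in part by that filter. SSTR2 was higher by 2.82 ± 1.85 (log2, SE) in the 4 Merkel cell carcinoma lines than in REH, in 4 of 4 lines, with an adjusted p of 0.521 by limma. SSTR1 differed by 0.40 ± 0.56, SSTR3 by 0.51 ± 0.58 and SSTR5 by 0.42 ± 0.81, with adjusted p from 0.703 to 0.806 by limma, and the median difference of the 22250 genes tested was 0.18. By limma, 0 of the 4 tested receptors passed an adjusted p of 0.05, and 0 had an unadjusted p under 0.05, while 5.24% of all genes tested passed, 1.09% as higher and 4.15% as lower in the Merkel cell carcinoma lines. A p-value here measures the spread between lines, and an exact permutation of 4 lines against 1 cannot give less than 0.2. When 1 line was left out, the difference of SSTR2 ran from 2.05 without WaGa (adjusted p 0.634 by limma) to 3.5 without MCC13 (adjusted p 0.257 by limma).

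The second kind of comparison sets each Merkel cell carcinoma line against the other 3, where an exact permutation cannot give less than 0.25. In MCC13, SSTR1 was higher by 1.17 ± 0.20 (log2, SE) than in the other lines, above 3 of 3, with an adjusted p of 0.0650 by limma. SSTR1 was tested only because MCC13 itself reached 1 TPM, so its direction was fixed by the filter, and with no filter its adjusted p was 0.0786 by limma. SSTR2, which reached 1 TPM in all 4 lines, differed in MCC13 by -2.69 ± 1.61 (below 3 of 3), with an adjusted p of 0.383 by limma, and by -1.87 without WaGa and -3.62 without MKL-2. SSTR3 differed by -0.71 ± 0.56 and SSTR5 by -0.60 ± 0.92. They entered this test only through other lines, SSTR3 through MKL-1 and SSTR5 through WaGa, which set their direction in part. No tested receptor passed the threshold in MCC13 (0 of 4 by limma, 1 of them, SSTR1, at an unadjusted p of 0.00698), against 8.95% of the 20698 genes tested (6.47% higher, 2.47% lower), whose median difference was -0.30. After quantile normalization of the 4 libraries compared, SSTR1 alone passed it, at 1.37 ± 0.18 with an adjusted p of 0.0388 by limma, again as a gene that entered through MCC13 alone.

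In WaGa, SSTR5 was higher by 1.77 ± 0.44 (log2, SE) and SSTR2 by 3.09 ± 1.37 than in the other 3 lines, each above 3 of 3. Neither passed the adjusted threshold in limma, and the unadjusted p was 0.0130 for SSTR5 and 0.0805 for SSTR2. SSTR5 entered the test through WaGa alone, which fixed its direction, so this p is no support for it. The difference of SSTR2 was 2.47 without MCC13 and 3.92 without MKL-1. In MKL-1 the difference was 1.17 ± 1.92 for SSTR2, from 0.30 without MCC13 to 2.47 without WaGa, and 0.90 ± 0.63 for SSTR3. In MKL-2 it was -1.57 ± 1.89 for SSTR2, from -0.61 without WaGa to -2.78 without MCC13, and 0.47 ± 0.68 for SSTR3. Among the Merkel cell carcinoma lines SSTR3 reached 1 TPM in MKL-1 alone, so the filter fixed its direction in MKL-1. In each of these 3 comparisons 0 of 4 receptors and 0 (0%) of the 20698 genes passed in limma. The genes with an unadjusted p under 0.05 numbered 296 in MKL-1, 638 in MKL-2 and 467 in WaGa, and 1 receptor was among them, SSTR5 in WaGa.

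**Figure D3:**
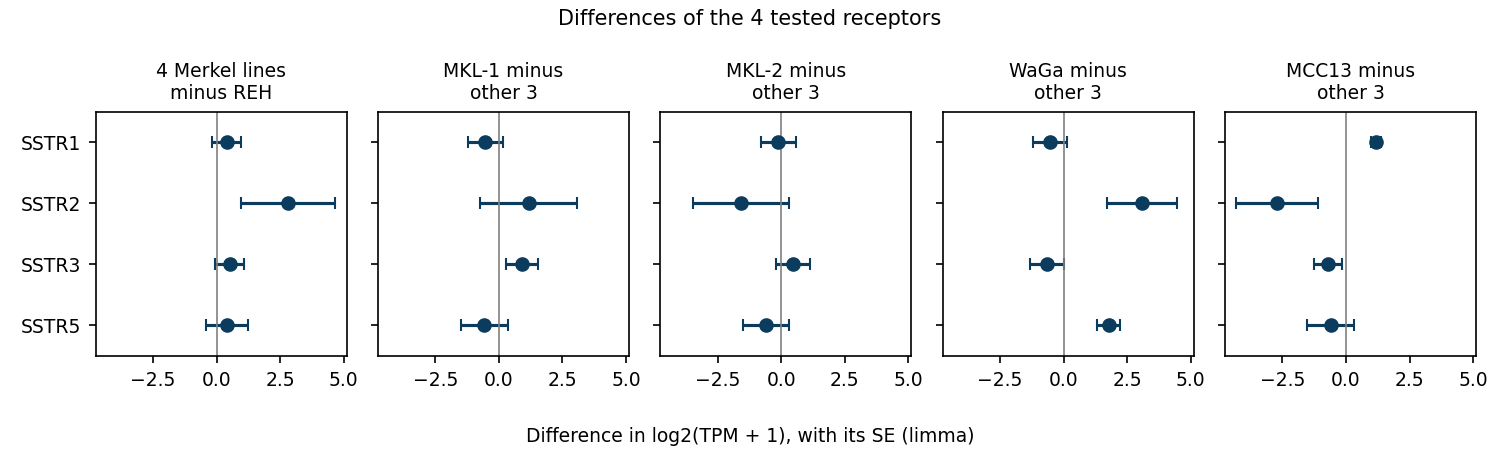
Difference in log2(TPM + 1) of the 4 tested receptors in 5 comparisons (points), with the standard error from limma (bars). In the left panel 4 lines are set against REH, and in the others 1 line against 3; the point for SSTR1 in MCC13 at 1.17 has the shortest bar, and SSTR2 in WaGa at 3.09 lies farthest from 0.

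The ligands and the enzymes that mature them form the first group of the pathway. Over all genes tested, 8.95% passed in MCC13 and 5.24% against REH by limma, with median differences of -0.30 and 0.18. Small counts in this and the other gene groups below were not tested against these shares. The somatostatin gene SST was listed at 0 TPM in all 5 lines. The cortistatin gene CORT stood between 0.968 TPM in MCC13 and 1.82 TPM in MKL-1 among the Merkel cell carcinoma lines and at 3.54 TPM in REH. CORT overlaps a read-through gene, APITD1-CORT, listed separately in the table, so its level is uncertain. Of 9 tested members of this group, 0 passed against REH by limma and 1 was lower in MCC13, the peptide-trimming carboxypeptidase CPE, at 9.10 TPM against 551 TPM in WaGa, 387 in MKL-2 and 363 in MKL-1 (-5.40 ± 0.34, adjusted p 0.0102 by limma). The prohormone convertase PCSK2 had 655 TPM in MKL-2, 163 in WaGa and 70.4 in MKL-1, and MCC13 and REH both listed it at 0 (adjusted p 0.0840 in MCC13 by limma). The median difference of the group was 3.13 against REH and -3.06 in MCC13.

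Inhibitory G proteins couple the receptors to their effectors, and 2 of 12 tested members were lower in MCC13, with 0 passing against REH by limma. GNAO1, the alpha subunit of Go, stood at 143 TPM in WaGa, 193 in MKL-1 and 178 in MKL-2, against 0.172 TPM in MCC13 (-7.19 ± 0.28, adjusted p 0.00855 by limma). The gamma subunit GNG4 stood at 84.6, 118 and 187 TPM in the same order, against 1.24 TPM in MCC13 (-5.79 ± 0.55, adjusted p 0.0205 by limma). GNAI2, the alpha subunit of an inhibitory G protein found in most cells, was at 446 TPM in MCC13, 249 TPM in REH and 58.4 to 152 TPM in the 3 other lines, and did not pass (adjusted p 0.198 in MCC13 by limma). The RNA of at least 1 inhibitory alpha subunit was therefore abundant in every line, including those with few receptor transcripts. The median difference of this group was 0.32 against REH and 0.12 in MCC13, beside 0.18 and -0.30 over all genes tested.

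Among adenylyl cyclases, the enzymes these G proteins inhibit, 1 of 8 tested was higher and 1 lower in MCC13, and 0 passed against REH by limma. ADCY1, a neuronal cyclase, ranged from 119 to 137 TPM over WaGa, MKL-1 and MKL-2 but was 3.23 TPM in MCC13 (-4.91 ± 0.22, adjusted p 0.00855 by limma). ADCY4 did not exceed 0.363 TPM outside MCC13, where it was 7.28 TPM (2.74 ± 0.23, adjusted p 0.0165 by limma). ADCY3, ADCY6 and ADCY9 were above 10 TPM in all 5 lines. The channels and phosphatases downstream of the receptors had 0 of 10 tested members past the threshold in either comparison by limma, with a median difference of 1.19 against REH and -2.0 in MCC13. The potassium channel KCNJ5 stood at 28.6 TPM in WaGa, 11.4 TPM in MKL-2, 1.11 TPM in MKL-1 and 0.0215 TPM in MCC13, and KCNJ3 at 7.44 TPM in MKL-1, 1.34 TPM in WaGa and 0.973 TPM in MKL-2, so the channel subunits had different leading lines. The P/Q-type calcium channel CACNA1A was, like SSTR2, highest in WaGa, at 179 TPM, but stood higher in MKL-2 (75.6 TPM) than in MKL-1 (51.6 TPM). The phosphatase PTPN6 (SHP-1), a mediator of receptor signalling, had 0.245 TPM in MCC13, against 11.6 to 33.1 TPM in the 3 other Merkel cell carcinoma lines, and PTPN11 (SHP-2) at 122 to 186 TPM in all 5 lines.

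Kinases, arrestins and RGS proteins end the signal of the activated receptor. Of 10 tested, 0 passed against REH and 1 was higher in MCC13 by limma. This was RGS7, a brake on Gi/Go proteins, at 11 TPM in MCC13, against 0.0238 TPM or less in the 4 other lines (3.57 ± 0.16, adjusted p 0.00855 by limma). ARRB2, an arrestin that binds activated receptors, stood between 73.3 and 156 TPM in all 5 lines. The receptor kinase ADRBK1 (GRK2) stood at 672 TPM in REH and at 54.8 to 132 TPM in the Merkel cell carcinoma lines (adjusted p 0.0650 by limma). Among scaffold and sorting proteins of receptors, 1 of 6 tested was higher against REH and 0 differed in MCC13 by limma. This was MPDZ, a protein of many PDZ domains, at 31.7 to 49.7 TPM in the Merkel cell carcinoma lines and listed at 0 in REH (5.33 ± 0.47, adjusted p 0.00959 by limma). The 12 genes listed for the sorting of receptors such as SSTR3 into cilia were the BBSome, its partners and the ciliary receptor GPR161. All reached 1 TPM in MKL-2, WaGa and MCC13, and 11 did in MKL-1, where GPR161 stood at 0.159 TPM. Their RNA was thus present also in lines with little SSTR3, and 0 of 12 passed in either comparison by limma.

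**Figure D4:**
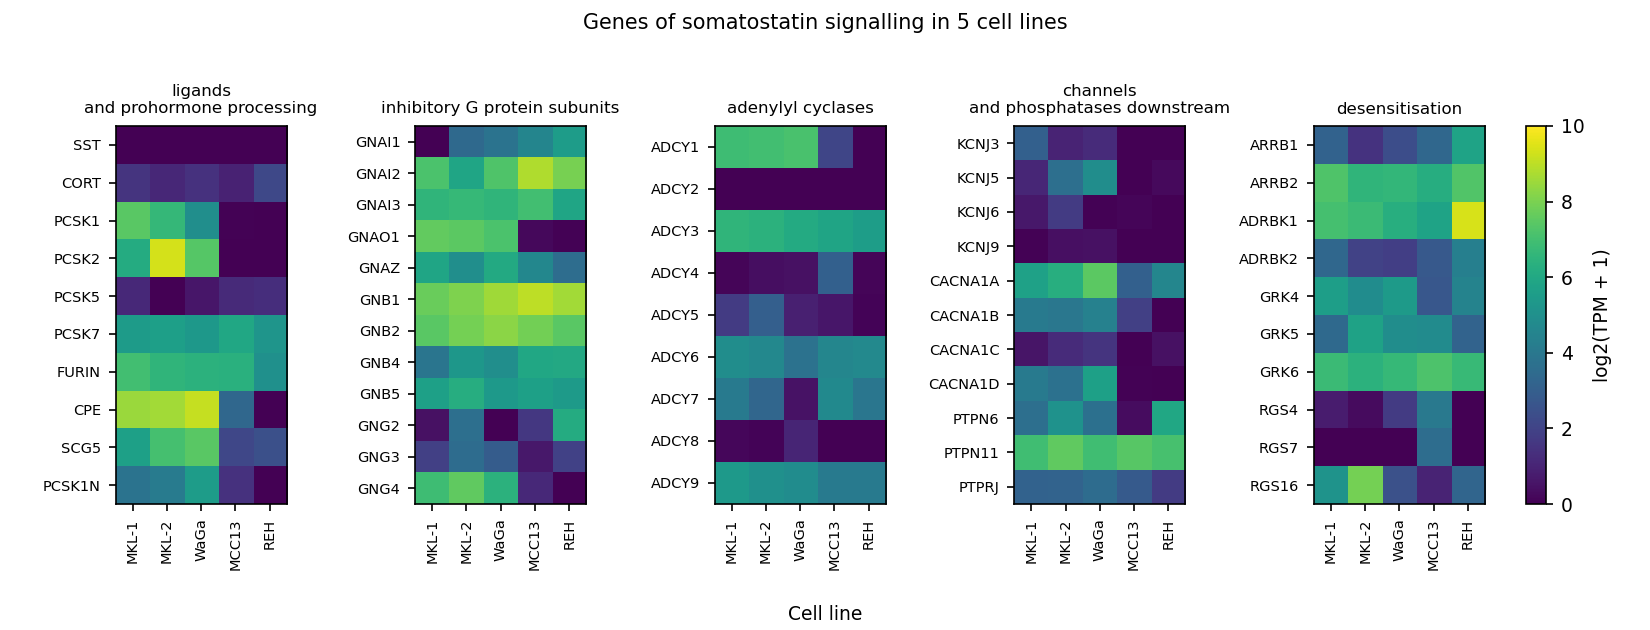
Colour gives log2(TPM + 1) for genes of somatostatin signalling (rows) in each line (columns), in 5 groups by role, with a scale from 0 to 10. The row of SST is at 0 in all 5 lines, and CPE, GNAO1, GNG4 and ADCY1 are high in WaGa, MKL-1 and MKL-2 and low in MCC13 and REH.

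In MCC13, 0 genes passed by limma once any of the 3 other lines was dropped, which leaves 1 residual degree of freedom, with 4414 to 4978 genes at an unadjusted p under 0.05 against 5516 before. Some differences changed little, for CPE from -5.52 to -5.22, for GNAO1 from -7.31 to -7.10 and for GRPR from 5.32 to 5.53. Others changed more, for SSTR2 from -3.62 to -1.87 and for CHGA from -10.1 to -8.72. Against REH, with 2 residual degrees of freedom, 0 genes passed without MKL-1, MKL-2 or WaGa (3194 to 3432 at an unadjusted p under 0.05) and 2828 without MCC13. Of the genes named as called, RGS7, ADCY4, GALR2 and GRPR reached 1 TPM among the compared lines in MCC13 alone, GNAO1 in the other lines alone, and MPDZ in the Merkel cell carcinoma lines alone, so the filter fixed their direction. The 12 tested neuroendocrine markers were all lower in MCC13, with a median difference of -6.71. Of 6 tested mesenchymal markers 5 were higher and DCN lower, with a median of 4.11, beside -0.30 over all genes tested. Among the neuroendocrine markers, only CHGB, SYP and ENO2 reached 1 TPM in MCC13, so the filter set the direction of the others in part. VIM and PDGFRB reached 1 TPM in MCC13 alone, which fixed theirs. MCC13 is 1 library, so its receptor and marker differences cannot be told apart. The summed mesenchymal markers were at 5082 TPM in MCC13, mostly VIM and FN1, 10.8 to 29.6 TPM in the 3 other Merkel cell carcinoma lines and 793 TPM in REH. Any part of these markers in the receptor levels was not tested.

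Receptors related to SSTR1 to SSTR5 by sequence, those for opioids, galanin, kisspeptin and other peptides, had patterns of their own. Of 12, 6 reached 1 TPM in a line. By limma, 0 of these 6 passed against REH and 1, the galanin receptor GALR2, was higher in MCC13, at 5.51 TPM against at most 0.352 TPM in the other lines (2.41 ± 0.21, adjusted p 0.0167 by limma). The kisspeptin receptor KISS1R stood at 17.1 TPM in MKL-1 and even 26.6 TPM in MKL-2, above WaGa with 4.76 TPM and MCC13 with 0.0787 TPM, so that in MKL-2 this receptor exceeded SSTR2 (3.64 TPM). The nociceptin receptor OPRL1 was highest in REH, at 34.4 TPM. The neuropeptide receptor NPBWR1 was at 4.93 TPM in WaGa and at most 0.284 TPM elsewhere, the same leading line as for SSTR2 and SSTR5.

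Other targets of tumour imaging were set beside SSTR2, and 9 of 15 reached 1 TPM in a line. By limma, 0 passed against REH, while in MCC13 the bombesin receptor GRPR was higher and the Notch ligand DLL3 lower. GRPR stood at 59.3 TPM in MCC13, under 1 TPM in the 3 other Merkel cell carcinoma lines and at 0 in REH (5.42 ± 0.36, adjusted p 0.0112 by limma). Its level in MCC13 was above that of SSTR2 in WaGa. DLL3 ranged from 68.7 TPM in MKL-1 to 86.3 TPM in WaGa, with MKL-2 at 83.1 TPM, a spread far narrower than that of SSTR2, and at 3.98 TPM in MCC13 (-4.00 ± 0.26, adjusted p 0.0110 by limma). The chemokine receptor CXCR4 stood at 236 TPM in MKL-2, 150 TPM in MKL-1, 68.1 TPM in WaGa and 10.7 TPM in MCC13, so among MKL-1, MKL-2 and WaGa its order was the reverse of that of SSTR2. The noradrenaline transporter SLC6A2, which takes up the tracer MIBG, was at 8.01 TPM in MKL-2 and listed at 0 in the 4 other lines.

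The genes whose profile over the 5 lines was most like that of SSTR2, by the root mean square difference in log2(TPM + 1), were GRIN2D (0.469), SYTL3 (0.473) and EYA1 (0.489). GRIN2D, a subunit of the NMDA-type glutamate receptor, stood at 91.7, 15.4, 3.05, 0.752 and 0.380 TPM in WaGa, MKL-1, MKL-2, MCC13 and REH. EYA1, a transcriptional coactivator of sensory organ development, stood at 54.0, 19.8, 4.18, 0.320 and 0.0878 TPM in the same order. Both shared with SSTR2 the sequence of WaGa, MKL-1, MKL-2, MCC13 and REH from high to low. For SSTR1 the closest genes were GALNTL6 and RPL30P11, for SSTR3 C9orf84 and ATP12A, and for SSTR5 AZGP1 and VWC2, all with profiles under 3 TPM. A likeness over 5 libraries is a description, and many low genes share such a profile.

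The gene models bear on how cleanly the receptors could be measured. In GENCODE 29 the coding sequence of each receptor lies in 1 exon, with 1092 (SSTR5) to 1254 (SSTR3) coding bases. The longest run of bases shared by a pair of receptors was 35, between SSTR1 and SSTR4, and no stretch of 50 bases of SSTR1, SSTR3, SSTR4 or SSTR5 occurs in another gene. For SSTR2, 4.08% of such stretches do, most of them in AC097641.1, a transcript that overlaps it on the same strand. Under its older name RP11-143K11.5 this transcript stood at 0.928 TPM in WaGa and at most 0.267 TPM in the 4 other lines, so reads could have been divided between the pair, and how many was not measured. A transcript also overlaps SSTR4 on its strand but, unlike that of SSTR2, shares no stretch of 50 bases with it. This transcript was at 0.0952 TPM in MKL-2 and 0 elsewhere. The antisense gene SSTR5-AS1 begins 50 bases from SSTR5 and stood at 0.0961 TPM in WaGa.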

How the data were processed

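Poly(A)-enriched RNA of 5 cell lines, 1 library each, was sequenced from directional libraries, per the labels' protocols. The authors deposited TPM values for 57905 genes. SAMtools 0.1.19, StringTie 1.3.5, STAR 2.4.5b and bcl2fastq 2.20, and the builds hg19 and GRCh37, are named without roles, per the submitters' processing notes, and which annotation was used is not stated there. TPM hold no depth, and a few abundant genes can shift all others: the mitochondrial share was 0.783% of TPM for REH against 3.52% to 7.84% elsewhere. There was 1 column of values that matched no sample and was not used. The exon table of PAX5 was not used here.

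Genes that reached 1 TPM in any line compared were tested with limma 3.58.1 in R 4.3.3 on log2(TPM + 1), with a variance trend, 2-sided and Benjamini-Hochberg adjusted over all genes tested, with a threshold of 0.05. This scale understates differences of low genes, and a lone line was assumed to vary like the others. The script was checked on simulated data. Alternatives were a pseudocount of 0.1 TPM, no filter, a mean of at least 5 TPM, quantile normalization, TPM rescaled without mitochondrial genes, levels rescaled by the upper quartile of genes at 1 TPM or more, no variance trend, and leaving out each line. The members, the 17 gene lists (148 of 149 symbols found, PECAM1 not) and the tests were chosen with earlier results of these data known. Named genes are all members, list genes past the threshold, the main genes of each role and the 5 genes most like each tested member, of which the text gives some. Upstream windows came from a RefSeq table of GRCh38.p14, in which all 5 receptors matched by symbol; gene models came from GENCODE 29, where 4 of 5 receptor identifiers matched and SSTR3 was matched by symbol. Figures were drawn with matplotlib 3.10.9 in Python 3.11.15.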

Additional observations from a re-analysis of the deposited data

Results flagged for a closer look

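Among the 4 Merkel cell carcinoma lines, SSTR5 in WaGa stood far from the rest: its gap to the next line was 0.987 of the whole range, above Dixon's critical value for 4 samples. Its level was 2.43 TPM in WaGa and at most 0.0164 TPM in MKL-1, MKL-2 and MCC13. Chance puts about 1 in 20 groups of 4 normally distributed values past this value, and 5 receptors were examined. That rate does not hold here, because MKL-1, MKL-2 and MCC13 all lay near 0. Any gene near 0 in all lines but 1 gives a gap close to the whole range, so the flag adds nothing to these levels. The corresponding gap was 0.752 for SSTR1 (MCC13), 0.468 for SSTR4 (MKL-2), 0.333 for SSTR2 (WaGa) and 0.270 for SSTR3 (MKL-1).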

How the results depend on the processing

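Of 157 tests of receptors under the alternatives, 155 kept their direction and their side of the threshold, but in only 49 of them did the setting call any gene at all, and of these 48 kept both. With quantile normalization the number of receptors called in MCC13 went from 0 to 1, by SSTR1 (1.37, adjusted p 0.0388 by limma); this setting moved the median of all genes from -0.30 to -0.15 in MCC13 and from 0.18 to 0.07 against REH, and over all its alternatives the adjusted p of SSTR1 in MCC13 ran from 0.0388 to 0.205. With a pseudocount of 0.1 TPM the difference of SSTR1 in MKL-2 was 0.48, against -0.11 before. SSTR1 stood at 0.245 TPM in MKL-2, between 1.42 TPM in MCC13 and 0 in MKL-1 and WaGa, so the sign of this difference depends on the pseudocount. The same setting gave 3.33 for SSTR1 in MCC13 (adjusted p 0.148 by limma) and 4.59 for SSTR5 in WaGa, against 1.17 and 1.77, as a smaller pseudocount widens differences of low genes. Rescaling multiplied levels by 1.008 to 1.09 without mitochondrial genes and by 0.951 to 1.04 with the upper quartile of genes at 1 TPM or more. Over all genes, calls against REH were 1166, but 3694 with no filter, 288 with a mean of at least 5 TPM, 2828 without MCC13 and 0 without MKL-1, MKL-2 or WaGa. No receptor was called without MCC13 against REH. In MCC13 they were 1852, but 3312 with no filter, 1167 with a mean of at least 5 TPM and 0 without MKL-1, MKL-2 or WaGa. In MKL-2 they were 0, but 604 with no filter. Among the list genes called in MCC13, ADCY4, GALR2, FN1, COL1A2 and PDGFRB lost their call with a pseudocount of 0.1 TPM. FN1 lost it also with no filter, KRT14 with no variance trend, and CHGA with no filter, quantile normalization or no variance trend. Of the called mesenchymal markers, VIM alone kept its call in every setting that used all lines. No paired analysis was possible because each line has 1 library. Depth is unknown, so receptors near or under 1 TPM have no counting error.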

Other observations

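The protein-coding neighbours of the receptors, in the gene order of GENCODE 29, held values that belong to no comparison above. SOX8, a transcription factor of neural crest and glia 91802 bases from SSTR5, stood at 10.3 TPM in WaGa and under 0.3 TPM in the 4 other lines. WaGa was also the line with SSTR5 at 2.43 TPM. C1QTNF8, the closer neighbour of SSTR5 at 9863 bases, was at only 0.0624 TPM in WaGa and listed at 0 in the 4 other lines. FOXA2 and THBD, on either side of SSTR4 at 449931 and 8821 bases, stood at 36.2 and 20.0 TPM in MCC13, where SSTR4 was listed at 0. RAC2, a small GTPase of blood cells next to SSTR3, reached 234 TPM in REH and 168 TPM in MCC13 but was under 1 TPM in WaGa, MKL-1 and MKL-2, of which WaGa had little SSTR3. The neighbours of SSTR2 were at 11.6 to 34.5 TPM (SLC39A11) and 20.7 to 80.2 TPM (COG1) in all 5 lines, and WaGa was the highest line for neither.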
